A study of Mus musculus with 4 samples.

Results

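Chemokines are small secreted proteins that attract leukocytes, and 10 of their genes are described here in a mouse tumour line with and without a drug against type I protein arginine methyltransferases (PRMTs), enzymes that methylate arginines. The 10 genes, Cxcl10, Cxcl1, Cxcl2, Cxcl5, Cxcl9, Cxcl16, Ccl2, Ccl5, Ccl7 and Ccl20, were looked up by name in the deposited table, which lists 51826 genes and gives a base mean (the mean over libraries of reads divided by a size factor) for 12578. All 10 are listed. Of these, 8 have a base mean, and 6 reach the base mean of 10 required for a test, as do 8562 genes in all. Cxcl2 and Cxcl5 lie below that minimum, and Cxcl9 and Ccl20 are listed without values.

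The cells were MC38/gp100, a colon adenocarcinoma line from C57BL/6 mice named for the melanocyte antigen gp100, the product of Pmel. All were cultured for 5 days. The control group received DMSO, the solvent, and the treated group received 1 µM GSK3368712, an inhibitor of type I PRMTs. There were 2 libraries per group, here called A and B as in the columns of the table, and the labels do not say whether they came from separate cultures. The p-values below therefore rest on differences between these libraries, pooled mostly over genes, and that spread may be technical.

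Chemokines are named by the spacing of their first cysteines: a residue lies between them in CXC ligands, and they are adjacent in CC ligands. CXC ligands with a Glu-Leu-Arg motif, such as Cxcl1, Cxcl2 and Cxcl5, act on the receptor Cxcr2 and draw neutrophils, whereas Cxcl9 and Cxcl10 act on Cxcr3 and draw activated T cells and NK cells. Many chemokine genes are switched on by NF-kB, and those for the Cxcr3 ligands also by interferon through IRF and STAT factors.

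Read counts were worked back to whole numbers from the base means. Totals over the genes with values, all protein-coding, ranged from 1079854 to 1176009 reads per library. They include estimates for 7 genes without a single solution, and without these they were 974616 to 1071292. The chemokine counts are small and carry a wide counting error. Between 997 and 1319 reads per library fell on the 8 chemokine genes together. No source used here gives the strand setting of the counting step. Among the 20 most abundant genes by base mean, 18 have an exon overlapping an exon on the other strand, against 33.6% of 12570 annotated genes with values. The pattern was led by genes such as Phykpl (base mean 16504), which lies opposite Hnrnpab (2667). Whether sense or antisense reads were counted was not tested, so the level of a chemokine mRNA and its change with the inhibitor are uncertain. Levels, rises and falls given below are those of the reads counted at a gene.

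The upstream sequences of 3 CXC genes are shown because they hold the letters that NF-kB and interferon-activated factors are known to read. RefSeq (GRCm38.p6) gave a promoter for 5 of the 10 genes: Cxcl10, Cxcl1, Cxcl2, Cxcl9 and Ccl20. The 250 bases before each start site are printed 5′ to 3′ on the gene's strand, and capitals mark matches to the NF-kB consensus or to the interferon-stimulated response element (ISRE), searched as TTTCNNTTTC, both on either strand, with overlapping matches merged. The windows are chr5:92348890-92349139 (minus strand) for Cxcl10, chr5:90890995-90891244 (plus strand) for Cxcl1 and chr5:90903649-90903898 (plus strand) for Cxcl2.
Cxcl10: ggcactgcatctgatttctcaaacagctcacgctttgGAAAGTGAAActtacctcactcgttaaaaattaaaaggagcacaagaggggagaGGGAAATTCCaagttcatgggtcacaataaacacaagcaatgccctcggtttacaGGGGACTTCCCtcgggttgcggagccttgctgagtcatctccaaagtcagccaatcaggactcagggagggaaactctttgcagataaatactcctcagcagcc
Cxcl1: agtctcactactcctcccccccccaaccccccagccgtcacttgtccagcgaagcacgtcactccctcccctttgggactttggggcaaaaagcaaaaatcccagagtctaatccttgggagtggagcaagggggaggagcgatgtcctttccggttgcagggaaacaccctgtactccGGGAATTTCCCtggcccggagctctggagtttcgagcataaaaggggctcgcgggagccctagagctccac
Cxcl2: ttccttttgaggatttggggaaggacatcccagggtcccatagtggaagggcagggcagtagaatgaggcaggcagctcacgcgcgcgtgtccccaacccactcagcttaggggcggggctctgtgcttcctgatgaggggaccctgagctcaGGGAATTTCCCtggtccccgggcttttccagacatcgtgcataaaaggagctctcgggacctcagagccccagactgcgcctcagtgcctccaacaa

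In the Cxcl10 window the first capitals are the ISRE match, 213 to 204 bases before the start site, and the other capitals are 2 NF-kB stretches, at 159 to 150 and 104 to 94 bases before it. The Cxcl1 and Cxcl2 windows each hold 1 NF-kB stretch, GGGAATTTCCC, at 71 to 61 and 97 to 87 bases before the start. Ccl20 held 1 NF-kB match and no ISRE match, and Cxcl9 held neither within these letters. Among 32851 RefSeq promoters of 300 bases, 8.46% held an NF-kB match, 3.44% an ISRE match and 0.247% both. A match describes the letters only.

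Of the 6 tested chemokines, 2 rose with the inhibitor, both CXC ligands: Cxcl10, which attracts T cells, by 1.69-fold and Cxcl1, which attracts neutrophils, by 1.42-fold. The other tested genes, Cxcl16, Ccl2, Ccl7 and Ccl5, did not pass the test, and none of the 6 passed as lower. Across all 8562 tested genes, 1.3% passed the test as higher and 0.841% as lower. The test was limma with a trended prior on the deposited log2 values, Benjamini-Hochberg adjusted over all tested genes at 0.05, two-sided. At an unadjusted p under 0.05, limma gave 3 of the 6 higher and 0 lower, against 6.32% and 5.89% of all tested genes. Voom with TMM scaling called 2 higher and 0 lower by adjusted p, against 1.32% and 0.771% of all genes. The calls lean mostly on a spread pooled over genes, since the prior had 182 degrees of freedom against 2 residual ones. In bulk RNA, fewer cells making a transcript and less of it per cell cannot be told apart.

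**Figure D1:**
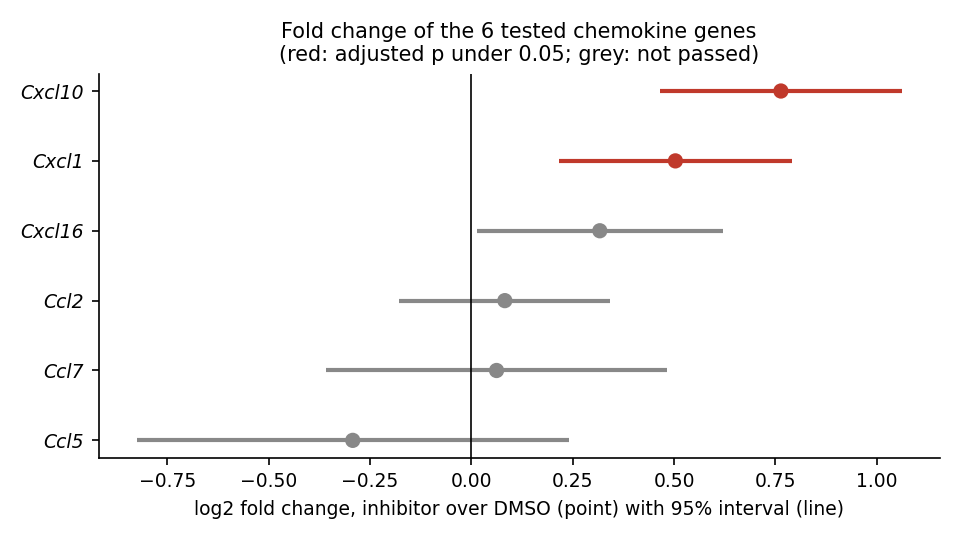
Log2 fold change (inhibitor over DMSO, horizontal axis) of the 6 tested chemokine genes from limma on log2 of normalised reads plus 1; points are estimates, lines are 95% intervals, and red marks genes that passed the adjusted test. The intervals of Cxcl10, Cxcl1 and Cxcl16 lie above 0, and those of Ccl2, Ccl7 and Ccl5 cross it.

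Cxcl10 (ENSMUSG00000034855.13, mm10 chromosome 5, 92346638 to 92348889, minus strand) encodes the interferon-inducible ligand of Cxcr3. It received 137 and 154 reads in DMSO A and B, against 218 and 255 in inhibitor A and B. After division by size factors these were 123, 161, 224 and 255 normalised reads. Both inhibitor libraries lay above both DMSO libraries, and the gap between the groups was larger than the gap within either. The mean rose from 142 ± 26.8 to 239.8 ± 22.0 normalised reads (SD, n = 2 each). The log2 fold change was 0.76 ± 0.15 (SE; 95% interval of the fold 1.38 to 2.09), with a limma adjusted p of 0.00018, rank 30 of the 8562 tested genes by p. Leaving out inhibitor B gave a limma adjusted p of 0.077, testing all genes with no minimum on the base mean gave 0.11, and the call was lost in both. In the authors' deposited table the log2 fold change was 0.76 ± 0.22 (SE) with an adjusted p of 0.097, which does not pass 0.05. Exons of Cxcl10 share 133 bp (5.91% of its exon bases) with exons of Art3 on the other strand, a gene listed without values.

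Cxcl1 (ENSMUSG00000029380.11, mm10 chromosome 5, 90891241 to 90893115, plus strand) encodes a Cxcr2 ligand induced by NF-kB. It received 205 and 155 reads in DMSO A and B, and 231 and 252 in inhibitor A and B. Normalised reads were 184, 162, 238 and 252 in the same order. Inhibitor libraries again lay above both DMSO libraries, although DMSO A was closer to them than DMSO B was. The mean rose from 173 ± 15.6 to 245 ± 10.4 normalised reads (SD, n = 2 each). Its log2 fold change was 0.50 ± 0.15 (SE; fold 1.16 to 1.73), with a limma adjusted p of 0.035. This call was close to the threshold: the limma adjusted p was 0.16 without DMSO B, 0.25 without inhibitor A and 0.40 without inhibitor B, whereas leaving out DMSO A gave 0.018. With no minimum on the base mean it was 0.25, and with library size scaling in voom 0.077. The authors' deposited table gave a log2 fold change of 0.50 ± 0.21 (SE) and an adjusted p of 0.57. No exon of another gene lies opposite Cxcl1, and no 50-base stretch of it occurs in another gene's transcripts.

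**Figure D2:**
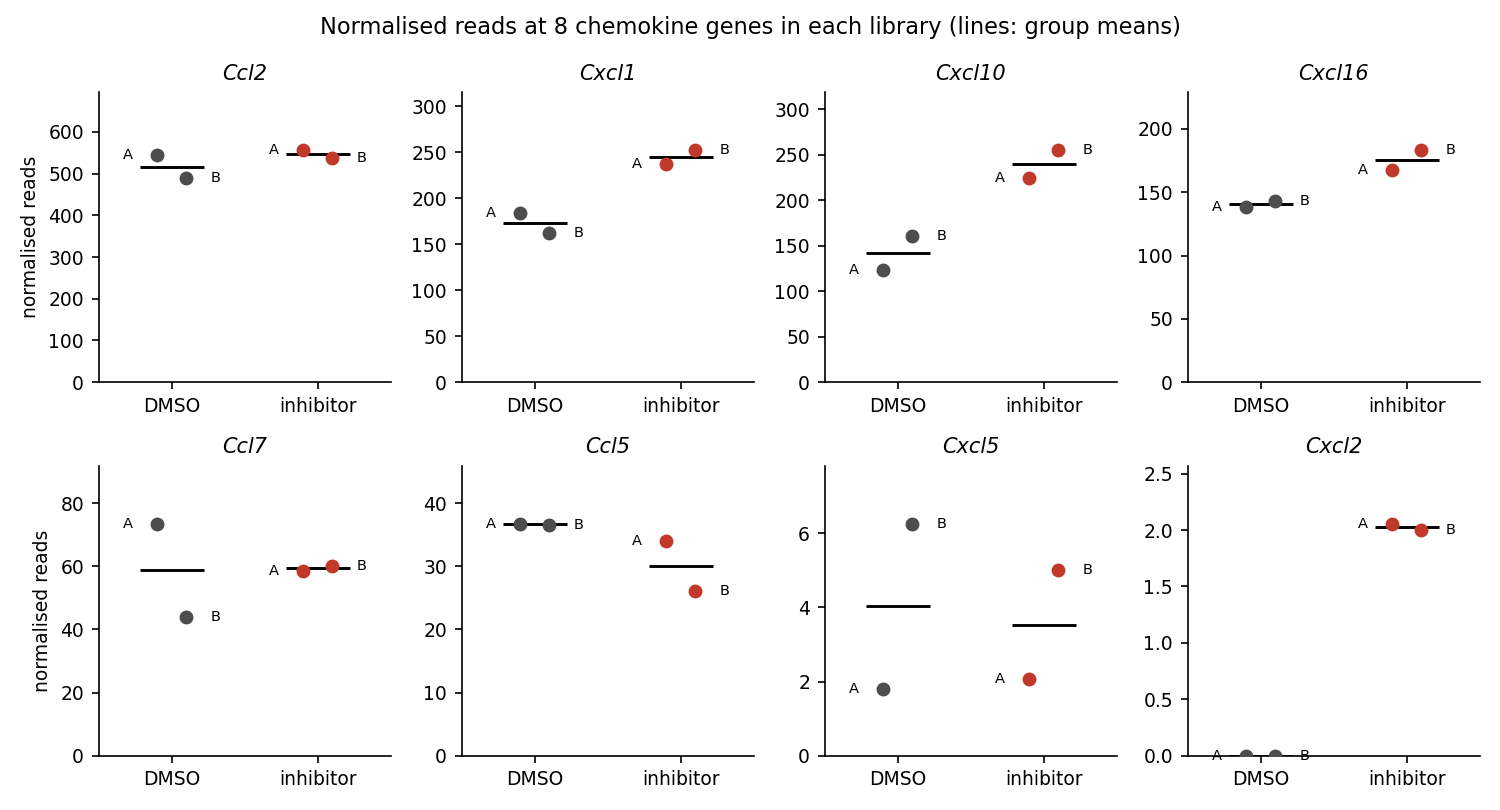
Normalised reads (vertical axes, each starting at 0 and scaled to its gene) at the 8 chemokine genes with values, in DMSO libraries A and B (grey) and inhibitor libraries A and B (red); black lines are group means, n = 2. The inhibitor libraries lie above the DMSO libraries for Cxcl10, Cxcl1, Cxcl16 and Cxcl2 (at most 2 reads) and below them for Ccl5, and the groups overlap for Ccl2, Ccl7 and Cxcl5.

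The other Cxcr2 ligands were near the limit of what these libraries could count. Cxcl2 (chromosome 5, 90903871 to 90905938, plus strand), which lies 10755 bp from Cxcl1, received 0 and 0 reads in DMSO and 2 and 2 in the inhibitor libraries. A count of 0 has an exact Poisson 95% interval reaching 3.69 reads, and a count of 2 one from 0.242 to 7.22, so no difference was detectable at this depth and no fold is given. Of the 50-base stretches of Cxcl2, 5.84% also occur in transcripts of its paralog Cxcl3, so a read lying in those could come from either gene. From which gene the few reads at Cxcl2 came was not tested. Cxcl5 (chromosome 5, 90759360 to 90761624, plus strand), known for neutrophil recruitment by epithelium, received 2 and 6 reads in DMSO and 2 and 5 with the inhibitor. The Cxcl5 groups overlapped. Among Cxcr2 ligands outside the 10, Cxcl3 received 3 and 5 reads in DMSO and 1 and 2 with the inhibitor, and Ppbp received 2 reads in inhibitor A and 0 elsewhere, neither enough for a test. Of the Cxcr3 ligands, Cxcl9 (chromosome 5, 92321347 to 92328079, minus strand), 18558 bp from Cxcl10, and Cxcl11 were listed without values.

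Cxcl16 (ENSMUSG00000018920.11, mm10 chromosome 11, 70453983 to 70459984, minus strand) encodes a membrane-anchored chemokine that is shed by proteases and binds Cxcr6. It received 154 and 137 reads in DMSO and 163 and 183 with the inhibitor. Normalised reads were 138 and 143 in DMSO and 168 and 183 with the inhibitor. The groups did not overlap, but the limma adjusted p was 0.37, for means of 141 ± 3.42 and 175 ± 11.0 normalised reads (SD, n = 2 each). The log2 fold change was 0.32 ± 0.15 (SE; fold 1.01 to 1.54). Exons of Cxcl16 share 552 bp (18.3% of its exon bases) with Zmynd15 on the other strand, and 16.9% of its 50-base stretches also occur there. Reads at Zmynd15 were 1897 and 2054 in DMSO and 2194 and 2561 with the inhibitor, that is 12.3, 14.99, 13.5 and 14.0 reads for each read at Cxcl16. The log2 fold change at Zmynd15 was 0.33 ± 0.14 (SE) with a limma adjusted p of 0.26. From which of these genes the reads came was not tested.

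Ccl2 (ENSMUSG00000035385.5, mm10 chromosome 11, 82035571 to 82037453, plus strand) encodes the main ligand of Ccr2, which draws monocytes. It received 608 and 468 reads in DMSO and 541 and 536 with the inhibitor, the highest count of the 10 in every library. Normalised reads were 545, 489, 557 and 537. DMSO A lay between the inhibitor libraries, so the groups overlapped. The means were 517 ± 40.3 and 547 ± 14.0 normalised reads (SD, n = 2 each), with a log2 fold change of 0.08 ± 0.13 (SE), a fold interval of 0.884 to 1.27 and a limma adjusted p of 0.89. A change of Ccl2 as large as the 1.69-fold of Cxcl10 lies outside that interval.

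Ccl7 (ENSMUSG00000035373.2, chromosome 11, 82045712 to 82047525, plus strand), a further monocyte attractant acting on Ccr2, starts 8258 bp beyond the end of Ccl2. It received 82 and 42 reads in DMSO and 57 and 60 with the inhibitor. Normalised reads were 73.6, 43.8, 58.6 and 60.1. The DMSO libraries lay on either side of the inhibitor libraries, with means of 58.7 ± 21.02 and 59.4 ± 1.02 (SD, n = 2 each). The log2 fold change was 0.06 ± 0.21 (SE; fold 0.779 to 1.398; limma adjusted p = 0.98), and it became -0.30 without DMSO B and 0.43 without DMSO A.

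Ccl5 (ENSMUSG00000035042.2, chromosome 11, 83525778 to 83530518, minus strand), a chemokine that draws T cells and monocytes, was the only tested member with a negative log2 fold change. It received 41 and 35 reads in DMSO and 33 and 26 with the inhibitor. Normalised reads were 36.8, 36.5, 34.0 and 26.0. Both inhibitor libraries were below both DMSO libraries, inhibitor A by a small margin. The log2 fold change of -0.29 ± 0.27 (SE; fold 0.564 to 1.18) had a limma adjusted p of 0.77. Ccl20 (chromosome 1, 83116766 to 83119167, plus strand), the ligand of Ccr6, was listed without values.

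As a group, the 6 tested chemokines had a median log2 fold change of 0.20, against 0.01 over all tested genes, and 5 of the 6 were positive, against 50.8% of all tested genes. Both inhibitor libraries exceeded both DMSO libraries at 3 of the 6 (Cxcl10, Cxcl1, Cxcl16), a pattern seen at 20.7% of tested genes, and were below them at 1 (Ccl5), as at 20.5%. Of the 10 genes, 5 have an adjusted p in the authors' deposited table and 0 of these pass 0.05, while 0.353% of the 4527 genes with such a value pass as higher. At an unadjusted p under 0.05, the authors' table gave 2 higher, Cxcl10 (p = 0.00068) and Cxcl1 (p = 0.015), and 0 lower, against 1.39% higher and 0.859% lower of all 12578 genes.

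**Figure D3:**
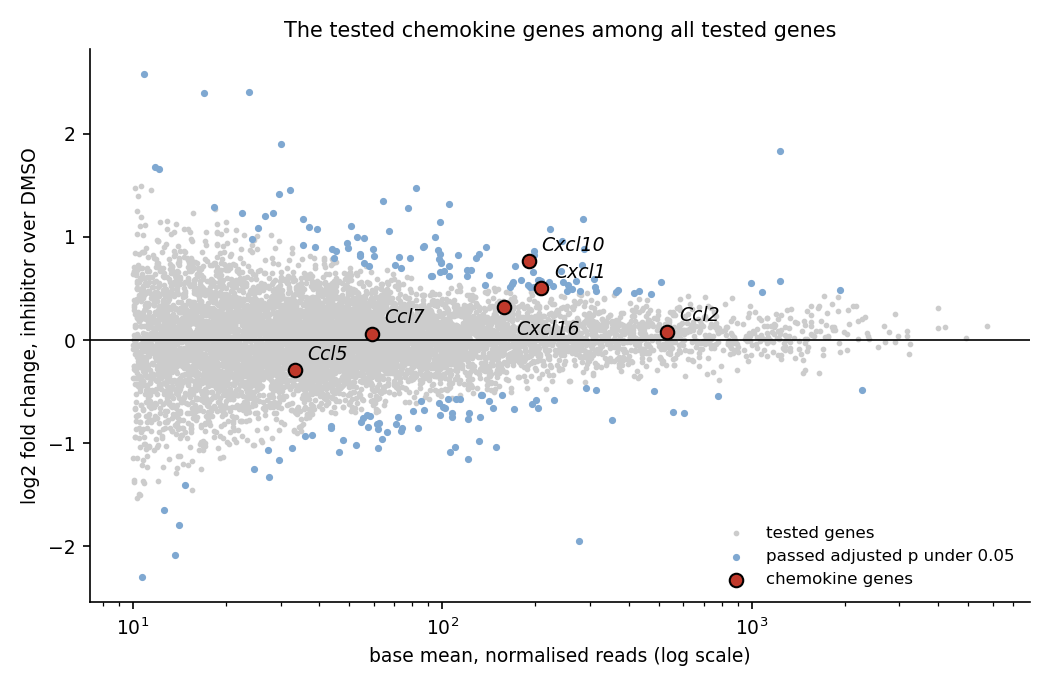
Log2 fold change (inhibitor over DMSO, vertical axis) against base mean (normalised reads, log axis) for all tested genes (grey), genes that passed the adjusted test (blue) and the 6 tested chemokine genes (red). Cxcl10 and Cxcl1 lie among the genes that passed on the higher side, and the other chemokines lie within the grey cloud.

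Levels of counted reads, whose strand was not tested, were compared between genes per kilobase of exon. Ccl2 was highest, at 429 to 489 normalised reads per kilobase over the 4 libraries. Cxcl1 followed at 86.3 to 135, Cxcl10 at 54.6 to 113, Ccl7 at 54.7 to 91.8, Cxcl16 at 45.7 to 60.7 and Ccl5 at 27.1 to 38.3. Over the 4 libraries the ranges of Cxcl1, Cxcl10, Ccl7 and Cxcl16 overlapped from each to the next, while those of Cxcl1 and Cxcl16 did not overlap. Within every library Cxcl1 exceeded Cxcl10 and Ccl7, and these exceeded Cxcl16, while Cxcl10 and Ccl7 changed order between libraries. Ccl2 stood clear of them above and Ccl5 clear of them below. Cxcl5 had 0.963 to 3.36 and Cxcl2 at most 0.995 normalised reads per kilobase.

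The mix of chemokine reads also moved. Ccl2 took 49.5% and 46.9% of all reads at the 8 genes in DMSO A and B, and 43.4% and 40.6% in inhibitor A and B. Cxcl10 took 11.2% and 15.4% in DMSO, and 17.5% and 19.3% with the inhibitor. Within a library, the ratio of Cxcl10 to Ccl2 reads does not depend on the size factor. That ratio was 0.225 and 0.329 in DMSO and 0.403 and 0.476 with the inhibitor. The Cxcl1 to Ccl2 ratio was 0.337 and 0.331 in DMSO and 0.427 and 0.470 with the inhibitor. In both ratios the inhibitor libraries were the higher pair, and the smallest p that an exact two-sided permutation test of 2 against 2 libraries can give is 0.333. The Cxcl10 to Cxcl1 ratio was 0.668 and 0.994 in DMSO and 0.944 and 1.01 with the inhibitor, so those groups overlapped.

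**Figure D4:**
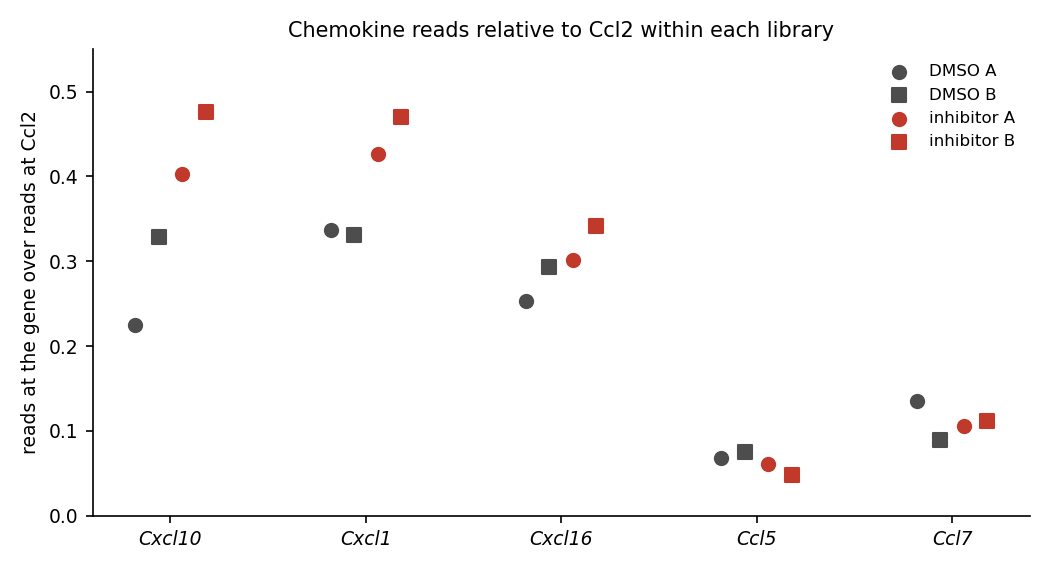
Reads at 5 chemokine genes divided by reads at Ccl2 in the same library (vertical axis, starting at 0), for DMSO A and B (grey) and inhibitor A and B (red); circles are libraries A and squares libraries B. The inhibitor libraries lie above the DMSO libraries for Cxcl10, Cxcl1 and Cxcl16, below them for Ccl5, and overlap them for Ccl7.

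Of 127 other genes in lists of ligands, receptors, proteases, transcription factors, NF-kB regulators, mRNA stability factors, cytokine receptors and cytokines, 87 had values and 65 were tested. Limma called 0 of the 65 higher and 1 lower, where all tested genes gave 1.3% and 0.841%. At an unadjusted p under 0.05, 9 (13.8%) were higher and 4 (6.15%) lower, beside 6.32% and 5.89% of all tested genes. With voom and TMM scaling the calls were also 0 and 1. Their median log2 fold change was 0.06, and 38 of the 65 were positive.

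Among receptors, 8 of 22 had values and 4 were tested. Ccr10, the receptor for the skin and mucosal chemokines Ccl27 and Ccl28, fell. Its reads were 61 and 55 in DMSO and 26 and 36 with the inhibitor, means of 56.1 ± 1.898 and 31.4 ± 6.58 normalised reads (SD, n = 2 each). The log2 fold change was -0.83 ± 0.24 (SE) with a limma adjusted p of 0.045. Leaving out any of the 4 libraries raised it to between 0.097 and 0.47, and the adjusted p in the authors' deposited table was 0.92. Ccr10 lies opposite Cntnap1 without an exon overlap, and from which gene its reads came was not tested. Ackr4, a scavenging receptor of CC chemokines that lies opposite Acad11, had a log2 fold change of 0.07. The tested ligands outside the 10 were Cx3cl1, the ligand of Cx3cr1, at 0.16 ± 0.14 (SE; limma adjusted p = 0.73), and Ccl25, the ligand of Ccr9, at -0.27 (exons opposite Elavl1). Ccl9 received 5 and 3 reads in DMSO and 5 and 7 with the inhibitor and was not tested, like Cxcl17 at 2 and 0 in DMSO and 0 and 1 with the inhibitor.

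Over all tested genes, 1.3% were called higher and 0.841% lower, 50.8% were positive and the median log2 fold change was 0.01. At such shares, 0 calls in a short list, here and below, says little about that list. Transcription factors of chemokine genes gave 0 calls in 17 tested, with 13 positive and a median log2 fold change of 0.27. The most abundant were the C/EBP factor genes: Cebpd had -0.41 ± 0.14 (SE; limma adjusted p = 0.096) and Cebpb -0.25, and they lie opposite Spidr and Tmem189. Inhibitors and kinases of NF-kB gave 0 calls in 11 tested, with 4 positive and a median log2 fold change of -0.25. Nfkbia, the NF-kB inhibitor that NF-kB itself induces, went from 275 ± 8.87 to 342 ± 2.83 normalised reads (SD, n = 2 each; log2 fold change 0.31 ± 0.14, SE; limma adjusted p = 0.28). Tnip1, an inhibitor acting with A20, had 0.25. The mRNA stability factors gave 0 calls in 10 tested, with Khsrp, a decay factor (opposite Gm17949), at -0.24 and Zfp36l2 (opposite AC132455.1) at 0.02.

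Cytokine receptors upstream of NF-kB and STAT factors gave 0 calls in 12 tested, beside 1.3% higher and 0.841% lower of all tested genes. Il6st, the shared receptor chain of the interleukin-6 family, had the log2 fold change 0.40 ± 0.15 (SE; limma adjusted p = 0.15), and Tnfrsf1a, a TNF receptor, 0.06. Of cytokines driven by NF-kB, 2 were tested and 0 called, with Csf1 at 0.24 and Lif at -0.33. Proteases and surface carriers that process or hold chemokines gave 0 calls in 7 tested, with Cd44 at 0.08 and Mmp14 at 0.15.

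Markers of other cell types were counted to describe what else the libraries could hold. Because the strand counted was not tested, a marker without a value does not show that its cells were absent. Of 16 leukocyte markers, 13 were listed without values, including Ptprc, and 0 were tested. Summed leukocyte markers were 10.8 and 15.7 normalised reads in DMSO and 14.4 and 8.01 with the inhibitor. Endothelial markers summed to at most 6.17. Of 10 epithelial markers, 5 had values and 1, Krt8, was tested and not called, and Epcam, a defining marker of epithelium, was listed without a value. Fibroblast markers summed to 1174 and 1170 normalised reads in DMSO and 1709 and 1523 with the inhibitor. Of 10 such markers, 6 were tested and 1, Col3a1, was called higher, beside 1.3% of all tested genes. Most of the sum came from the collagen genes Col1a1, Col1a2 and Col3a1, at 528, 304 and 165 normalised reads in DMSO and 714, 415 and 321 with the inhibitor. Pdgfra, a receptor of fibroblasts, went the other way without passing, from 68.8 ± 4.62 to 47.6 ± 7.71 (SD, n = 2 each; limma adjusted p = 0.23), and the groups overlapped at Dcn and Pdgfrb. Acta2 received 3 and 1 reads in DMSO and 0 and 0 with the inhibitor, and Lum, Fap and Thy1 were listed without values. The summed level was higher in the libraries where Cxcl10 and Cxcl1 were higher, and its part in their rise was not tested. Pmel, which names the line's antigen and lies opposite Dgka and Cdk2, had 29.3 ± 5.86 and 31.4 ± 5.14 normalised reads (SD, n = 2 each).

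Genes most like Cxcl10 were ranked by the root mean square difference of the centred deposited log2 values over the 4 libraries, among 2040 genes with base means of 100 or more. The nearest were Adgre5 (0.00964), Mns1 (0.0109), Rccd1 (0.0254), Fam166a (0.0321) and Klhdc9 (0.0372). With 4 libraries such a ranking describes the shape of the deposited values only. These values are drawn toward each gene's mean by unlike amounts, so genes near in them can differ in fold. From recovered reads, the log2 fold changes were 0.74, 0.91, 0.46, 0.57 and 0.73 in the same order, against 0.76 for Cxcl10. All 5 have an exon opposite another gene, in order Ddx39, Tex9, Prc1, Tubb4b and Pfdn2. Of 12570 annotated genes with values, 33.6% have such an exon, and the share among the 2040 ranked genes was not counted.

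**Figure D5:**
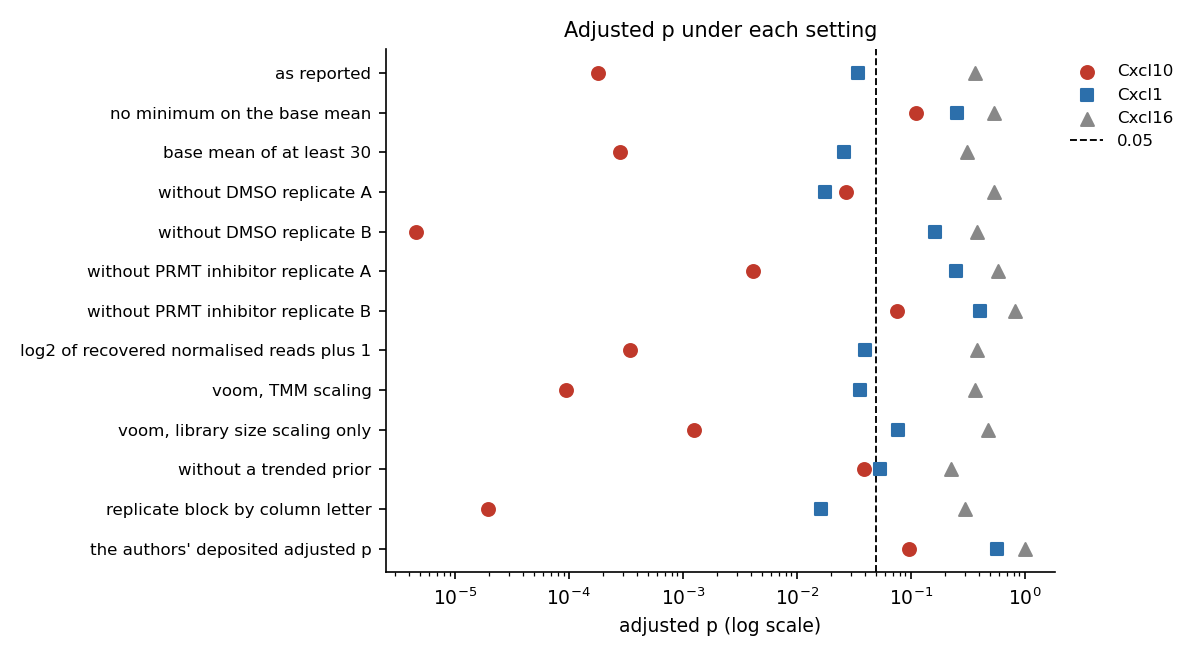
Adjusted p (log axis) of Cxcl10, Cxcl1 and Cxcl16 as reported and under 12 other settings; the dashed line is 0.05. Cxcl10 lies left of the line except with no minimum on the base mean, without inhibitor B and in the authors' table, Cxcl1 moves across the line, and Cxcl16 stays right of it.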

How the data were processed

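Poly(A) RNA of 4 libraries, 2 per group, was sequenced after extraction with RNeasy Plus and preparation with a KAPA stranded kit, per the labels' protocols. The build was mm10 and the tools HISAT2 2.1.0, SAMtools 1.2, StringTie 1.3.0 and DESeq2, per the submitters' processing notes, which give no roles. No source used here names the counting program, its setting for strand or the release of the gene annotation.

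The authors deposited log2 values per library, which are normalised and drawn toward each gene's mean. The base mean is a signal, and the log2 fold change, its error, the Wald score and the p-value with its adjusted form are the authors' DESeq2 results, per the file headers. The columns carry a group and a letter.

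Whole reads were recovered as the single set of counts that gives a base mean to its 15 significant digits with size factors of 1.11, 0.958, 0.972 and 0.999 (DMSO A, DMSO B, inhibitor A, inhibitor B). At all but low base means, only sets near the authors' deposited fold change were searched. At high base means the split between libraries A and B was limited too. A single set was found in this search for 12571 of 12578 genes, including all 8 chemokines with values. The recovery and the fits were tested on simulated data. Intervals on counts are exact Poisson at 95% and cover counting error only.

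Adjusted p-values come from limma 3.58.1 (R 4.3.3) with a trend, on the deposited log2 values of 8562 genes. Log2 fold changes and standard errors are those of a limma fit to log2(recovered normalised reads + 1), which understates changes of low genes. Python 3.11.15 was used for the rest. Positions, exon lengths and overlaps are from GENCODE M21 (mm10), which held 10365 of the 12578 versioned IDs; others were matched without the version. Most genes outside the 10 are named by rule. The rule takes those that passed, the 2 most abundant of each list, those opposite a member, and the 5 most like Cxcl10. Irf1, Cxcr6, Krt8, Epcam, Ptprc, Pmel and the fibroblast genes were named after their values were seen. So were Gm20721, Tlcd1 and Phykpl, with the genes opposite them. The 10 members and the lists were chosen with earlier results of these data known. Alternatives were a base mean minimum of 30 or none, pseudocounts of 0.5 and 5, other scalings, voom, an untrended prior, the authors' p-values and leaving out each library; a block by column letter was added after seeing the data.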

Additional observations from a re-analysis of the deposited data

How the results depend on the processing

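Of the 6 tested chemokines, 2 passed as higher. That count became 0 with no minimum on the base mean and 0 by the authors' adjusted p, and 1 (Cxcl10 alone) under voom with library size scaling only and 1 (Cxcl10 alone) without a trended prior. Leaving out each library gave 0 to 2. The count of chemokines lower was 0 under all 12 alternatives. Of the other chemokine-system genes, 0 passed as higher, and 0 to 1 when a library was left out (Irf1 without DMSO B, limma adjusted p = 0.035). The 1 lower gene, Ccr10, was lost, giving 0, with no minimum on the base mean, with library size scaling only, without a trended prior and by the authors' adjusted p, and each library left out gave 0 to 0. The deposited log2 difference of Ccl7 changed sign without DMSO B, with an adjusted p of 0.67 (0.59 to 0.996 over the libraries left out). The causes of these changes were not tested.

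The members' log2 fold changes moved by less than 1 SD under pseudocounts of 0.5 and 5 and under library size scaling; leaving out a library of 2 cannot move a fold by more than that. Scaling by library size only gave all tested genes a median log2 fold change of -0.03. Both groups carry the column letters A and B, which nothing ties to the labels' replicate numbers or to a shared culture. Over the tested genes, A minus B in DMSO and in the inhibitor group correlated at 0.085. With 1 such difference per group, this value cannot show whether libraries of the same letter shared a culture or a batch. With the letter as a replicate block, chosen after seeing the data, 1 residual degree of freedom was left. The calls were then 2 higher and 0 lower among the chemokines and 0 higher and 1 lower among the others. Calls over all 8562 tested genes were more numerous, at 133 higher and 94 lower against 111 and 72 without the block. Limma adjusted p under the block was 2.0e-05 for Cxcl10, 0.016 for Cxcl1 and 0.029 for Ccr10. Depth limits Cxcl2 and Cxcl5, and where a library was left out the lone library was assumed to vary like the other group.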

Other observations

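Cxcr6, the receptor of Cxcl16, was picked out after its values were seen. It received 1 and 2 reads in DMSO and 13 and 12 with the inhibitor, so both inhibitor libraries were above both DMSO libraries. Its base mean of 7.09 is below the minimum of 10, and it was not tested with limma. The authors' deposited table gives Cxcr6 a log2 fold change of 3.12 with an unadjusted p of 0.0096 and no adjusted p. Cxcr6 lies opposite Fyco1 without an exon overlap, and from which gene its reads came was not tested.

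Irf1, an interferon-induced transcription factor that acts on the Cxcl10 gene, had 118 ± 18.8 and 161 ± 1.23 normalised reads (SD, n = 2 each). Its log2 fold change was 0.45 ± 0.16 (SE) with a limma adjusted p of 0.12, and it lies opposite Gm17334. Both inhibitor libraries were above both DMSO libraries at Irf1.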
